A study of Mus musculus with 6 samples.

Results

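Primitive endoderm regulators and receptors were followed in mouse embryonic stem (ES) cells that lack the 3 Tet enzymes, through 9 genes chosen by name: Gata4, Gata6, Sox17, Sox7, Foxa2, Hnf4a, Pdgfra, Lrp2 and Dab2. Every array probe carrying one of these gene names was taken, which gave 14 of the 55681 probes and 9 of the 34650 gene names on the array. Samples of TKO cells, a triple knockout of Tet1, Tet2 and Tet3 made in the line BJ FF2 ES, numbered 3 and were set against 3 WT samples of BJ FF2 ES itself. Tet1, Tet2 and Tet3 encode dioxygenases that oxidise 5-methylcytosine in DNA. The 6 cultures ran side by side in 2i, a medium that blocks ERK signalling and GSK3, on inactivated mouse embryonic feeder cells. They were moved to matrigel without feeders before collection, and 1 dish gave the RNA of 1 sample. The dishes are thus repeats of 1 WT line and of TKO cells made from it. The p-values below measure the spread between dishes, which may be technical, and cannot be taken to hold a spread between clones. The labels do not say how many TKO clones were used or which exons were altered.

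The primitive endoderm is the extraembryonic layer that forms beside the epiblast in the inner cell mass and gives rise to visceral and parietal endoderm. FGF signalling through ERK drives its formation, GATA6 opposes NANOG in the choice between the layers, and GATA4, SOX17, SOX7, FOXA2 and HNF4A act at this step or later in the lineage. PDGFRA marks the cells at their surface, while LRP2 and DAB2 serve the heavy endocytic uptake of the visceral endoderm. ES cells correspond to the epiblast side of this choice and are known for holding these genes at low levels, a few cells in a culture excepted.

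RNA was measured on 1-colour Agilent arrays, all on 1 slide. A level below is the log2 of a probe's processed signal, less the array's 75th percentile, so that 0 stands for that percentile. A difference is the TKO mean minus the WT mean on that scale, with its standard error (SE) from limma and a Benjamini-Hochberg adjusted p over all 21562 tested genes. The 75th percentile lay between 366.9 and 412.9 intensity units, the share of spots well above background from 51.92% to 58.49%, with no saturated spot. TKO dish 1 and the 3 WT dishes lay in the first row of the slide, and TKO dishes 2 and 3 in the second, where the dimmest signal still called well above background was higher (20.3 and 20.07 units, against 10.05 to 12.47 in the first row). All 12 ES cell markers tested, among them Pou5f1, Nanog and Sox2, were well above background on every array. The targeted genes were read in a fit over all 30734 tested probes. The brightest probe of Tet1 differed by -1.37 ± 0.045 and that of Tet2 by -2.93 ± 0.056 (SE). That of Tet3 differed by -0.24 ± 0.099 and did not pass (adjusted p = 0.0904). The other Tet2 probes differed by -3.23 ± 0.062 and by -0.43 ± 0.196, the last without passing (adjusted p = 0.111).

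The genes of the primitive endoderm did not move as one group. Hnf4a RNA was 19.27-fold lower in TKO cells and Lrp2 RNA 10.29-fold higher, with Sox7 2.392-fold, Gata6 1.753-fold and Dab2 1.70-fold higher. Sox17 and Gata4 were lower by 1.461-fold and 1.147-fold. Pdgfra and Foxa2 did not pass the test. Thus 4 of the 9 genes rose, 3 fell and 2 did not pass at an adjusted p under 0.05, so that 77.8% were called. Of all 21562 tested genes, 59.7% were called, 30% higher and 29.7% lower. The TKO and WT dishes did not overlap in 8 of the 9, as in 67.6% of all tested genes, and 3 of the 9 were called with at least a 2-fold difference, as were 13.7% of all tested genes. The median difference of the 9 genes was 0.32 and its median size 0.77, beside -0.0083 and 0.30 over all tested genes. In RNA of whole dishes, fewer cells that express a gene and less RNA in each cell cannot be told apart.

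**Figure D1:**
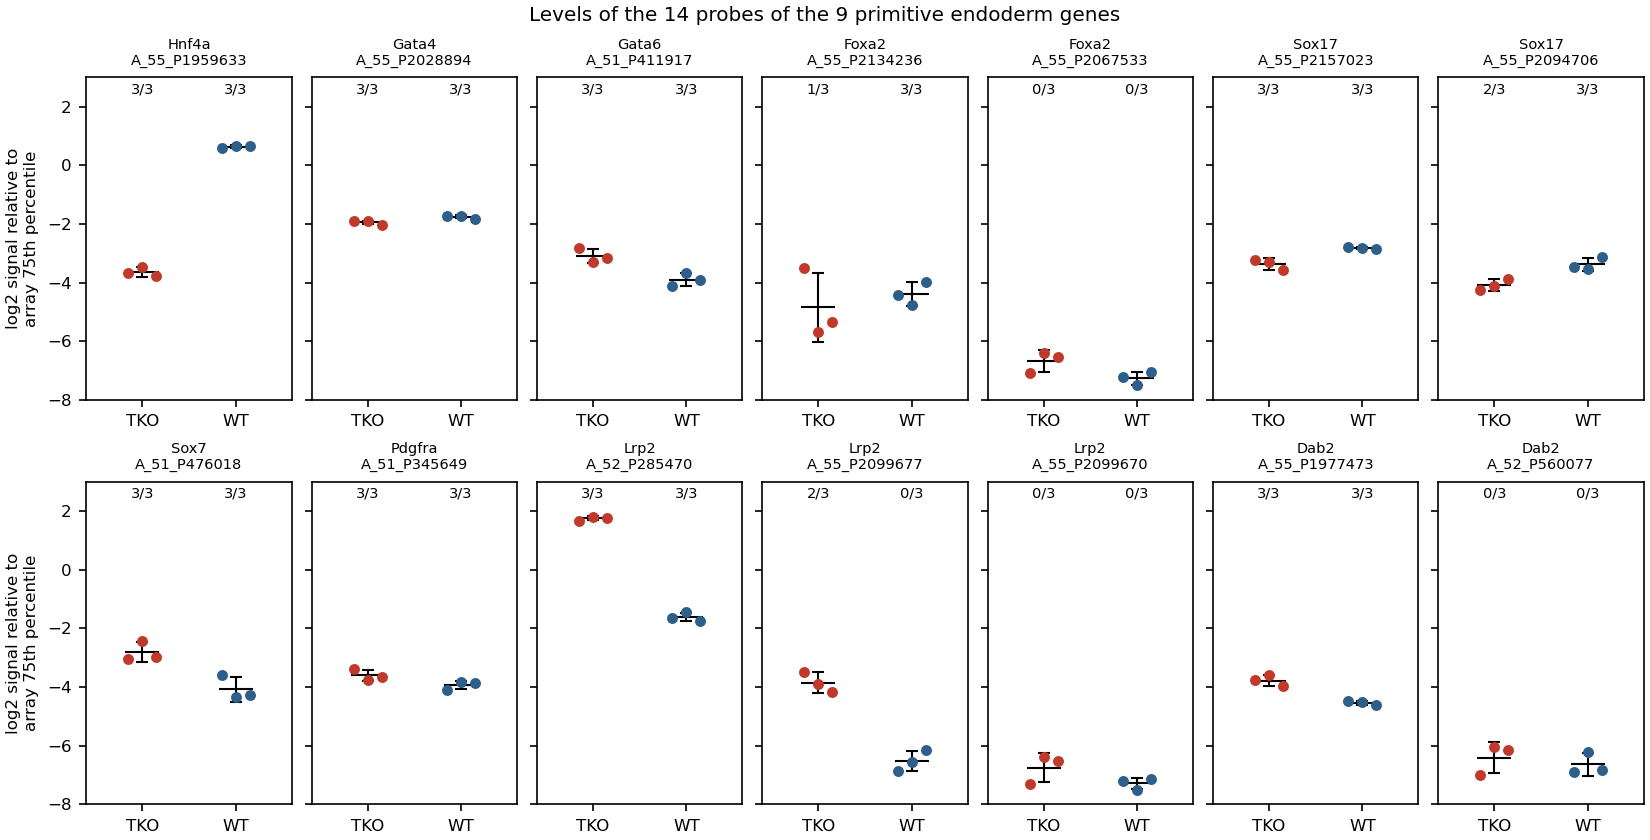
Levels of the 14 probes, as log2 signal relative to the 75th percentile of the array (vertical axis), in the 3 TKO dishes (red) and the 3 WT dishes (blue); bars give the mean and SD, and the numbers at the top count the arrays on which the probe was well above background. The Hnf4a and Lrp2 (A_52_P285470) dishes stand far apart, while 4 probes, in panels marked 0/3 or with TKO at 2/3 and WT at 0/3, were not measured well enough to be tested.

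Among the transcription factors, GATA6 is the one needed for cells to enter the primitive endoderm in the mouse embryo. Its probe (A_51_P411917, mm9 chr18:11085039-11085097) read -2.82, -3.29 and -3.15 in the TKO dishes, against -4.12, -3.67 and -3.91 in the WT dishes. Every TKO dish lay above every WT dish, and the difference was 0.81 ± 0.164 (SE, n = 3 each; adjusted p = 0.00724). These are low signals: 57.6, 39.1 and 46.7 intensity units in TKO and 21.2, 31.4 and 25.9 in WT. With normexp background correction, which adds 50 units to every signal, the difference was 0.20 and still passed.

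GATA4 acts with GATA6 in the lineage, and its RNA differed little. The probe (A_55_P2028894, mm9 chr14:63817858-63817917, minus strand) read -1.90, -1.91 and -2.02 in TKO and -1.71, -1.71 and -1.82 in WT. The groups did not overlap, but the lowest WT and the highest TKO dish were only 0.09 apart, and the fall of 0.20 ± 0.053 (SE; adjusted p = 0.0207) is the smallest of the 7 that passed. It did not pass with the first slide row alone or row as a block, which both set TKO dish 1 alone against the WT dishes (-0.16, adjusted p = 0.160 and 0.153), with no filter on dim probes (adjusted p = 0.0601), with an intensity trend in the variance (adjusted p = 0.0603), or without TKO dish 3 (-0.16), WT dish 1 (-0.18) or WT dish 2 (-0.18). It was -0.40 with each array centred on its median.

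SOX17 and SOX7 are related HMG-box factors that follow the GATA factors in this lineage, and their RNA differed in opposite directions. Both Sox17 probes fell in TKO. The first 30 bases of each are shown since they are separate readings of 1 transcript, with starts 465 bases apart on the minus strand of chromosome 1 (mm9 chr1:4481503-4481562 and chr1:4481038-4481097):
A_55_P2157023: ctcactgacttattccatttcttgaaagtg
A_55_P2094706: cccacttcccacaaaatttgcctttaattc
The first probe read -3.22, -3.29 and -3.58 in TKO, against -2.80, -2.81 and -2.85 in WT, a difference of -0.55 ± 0.099 (SE; adjusted p = 0.00462). The second read -4.26, -4.13 and -3.87 in TKO and -3.45, -3.54 and -3.13 in WT, and it was well above background on 2 TKO arrays and 3 WT arrays. Both probes placed every TKO dish below every WT dish. With normexp the first differed by -0.30. In the fit over all 30734 kept probes the second differed by -0.71 ± 0.148 (SE; adjusted p = 0.00881). In that fit 8 of the 10 kept probes of the 9 genes passed, beside 57.1% of all kept probes.

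The Sox7 probe (A_51_P476018, mm9 chr14:64569419-64569478) read -3.05, -2.43 and -2.99 in TKO and -3.59, -4.36 and -4.29 in WT. Sox7 was higher in every TKO dish, at 49.4 to 71.2 intensity units against 19.4 to 30.5 in WT, by 1.26 ± 0.269 (SE; adjusted p = 0.00896). The closest dishes, TKO 1 and WT 1, lay 0.54 apart. With the first slide row alone or slide row as a block, which both set TKO dish 1 alone against the WT dishes, the difference was 1.03 and did not pass (adjusted p = 0.0917 and 0.0930). Normexp gave 0.53.

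FOXA2 is a forkhead factor of the visceral endoderm and of the definitive endoderm that forms later. Its better probe (A_55_P2134236, mm9 chr2:147868669-147868728, minus strand) read -3.50, -5.68 and -5.35 in TKO and -4.42, -4.77 and -3.97 in WT. TKO dish 1 was the highest of the 6 and the other two TKO dishes the lowest, so the groups overlap. Only 1 TKO array and the 3 WT arrays had a signal well above background. The difference of -0.46 ± 0.606 (SE; adjusted p = 0.549) has a 95% interval from -1.97 to 1.05. Without TKO dish 1 it was -1.13 and passed (adjusted p = 0.0213), and with the first slide row alone, which keeps only that TKO dish, it was 0.88 (adjusted p = 0.115). The second probe (A_55_P2067533) overlaps the first by 5 bases and was well above background on 0 arrays, with readings from -7.09 to -6.39 in TKO and from -7.50 to -7.06 in WT.

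HNF4A is a nuclear receptor that in the mouse visceral endoderm, as in liver, drives genes of lipid and protein secretion. Its RNA showed the largest difference of the 9 genes, larger in size than that of 99.6% of all tested probes. The first 30 bases of its only probe are shown since that reading carries the result (A_55_P1959633, mm9 chr2:163398548-163398607, plus strand, starting at base 4262 of the transcript as the array files count it):
A_55_P1959633: ggggtaaaaaagagaaaaagccctcaaaaa
It read -3.66, -3.45 and -3.77 in TKO, against 0.58, 0.67 and 0.67 in WT. In intensity units these are 32.2, 35.1 and 30.2 in TKO and 548.2, 634.4 and 619.1 in WT. The TKO dishes were far below WT and still well above background on all 3 arrays, at 5.19% of the WT level. These TKO signals are low: the dimmest signals called well above background on those arrays were 11.55, 20.3 and 20.07 units. The size of the fall is thus less sure than its direction. The difference was -4.27 ± 0.090 (SE; adjusted p = 2.62e-06), and over the alternatives it ran from -4.47 to -3.00, the last with normexp, with a call in each.

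Among the receptors, PDGFRA binds PDGF-A and supports the survival of primitive endoderm cells. Its probe (A_51_P345649, mm9 chr5:75593888-75593947) was printed 10 times on each array, so that the error of a single spot can be seen. The spots of 1 array had SDs of 0.18 to 0.24. The array means were -3.39, -3.77 and -3.66 in TKO and -4.11, -3.84 and -3.85 in WT. TKO 2 and WT 2 were only 0.06 apart, although the groups did not overlap. The difference of 0.32 ± 0.126 (SE; 95% interval from 0.01 to 0.64) did not pass (adjusted p = 0.0704). It did pass without TKO dish 2 (0.41, adjusted p = 0.0485), the dish in which 6 of 9 usable spots were well above background. The first slide row alone and slide row as a block give 1 and the same estimate, which sets TKO dish 1 alone against the WT dishes (0.54, adjusted p = 0.0433 and 0.0268). It was 0.12 with median centring or quantile normalization and 0.09 with normexp. Pdgfra is also a gene of fibroblasts, whose markers differed between the groups. Of 17 tested markers, 13 were higher in TKO and 1 lower (82.35% called, beside 59.7% of all tested genes). The summed signal of the markers was 55.15 to 57.33 times the 75th percentile in TKO and 38.22 to 39.16 times in WT. Acta2, an actin gene, was the brightest of them in TKO and weighs heavily in this sum. It was the only 1 called at least 2-fold higher (2.301-fold), while Pdgfrb was 4.791-fold lower. With median centring 5 markers were higher and 2 lower. Their part in the Pdgfra difference was not tested.

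**Figure D2:**
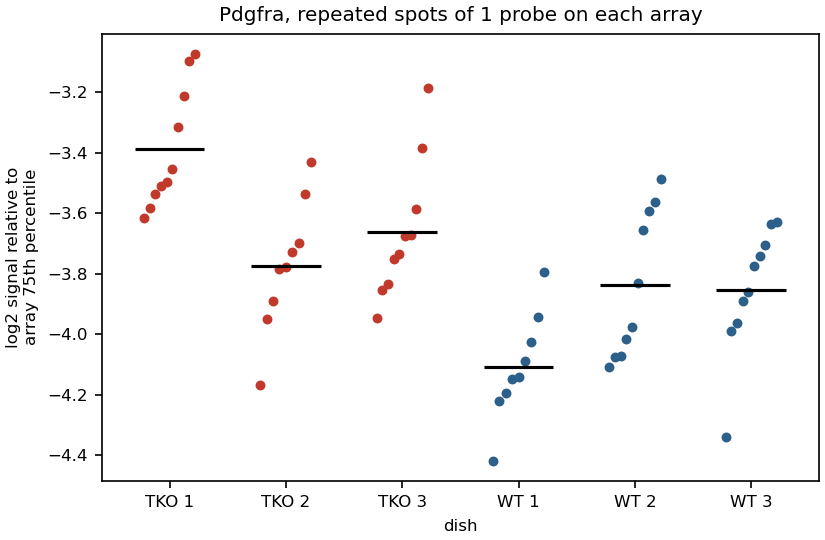
Each point is 1 usable spot of the Pdgfra probe on 1 array, as log2 signal relative to the 75th percentile of that array (vertical axis), for TKO dishes 1 to 3 (red) and WT dishes 1 to 3 (blue); the bar is the array mean. The spots of TKO 2 and TKO 3 cover much of the range of those of WT 2 and WT 3, and TKO 1 and WT 1 lie at the ends.

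LRP2, also called megalin, is the large endocytic receptor that takes up proteins and lipids at the apical surface of the visceral endoderm. The first 30 bases of 2 of its 3 probes are shown, since both read higher in TKO at places far apart in the locus (both on the minus strand, mm9 chr2:69262566-69262625 and, 81.7 kb upstream, chr2:69344263-69344322):
A_52_P285470: gcaagtagcattcccggtttctctgtgcta
A_55_P2099677: cctctgtgactttatatccctgtaggagta
The first probe starts at base 15233 of the transcript and read 1.68, 1.81 and 1.76 in TKO, against -1.64, -1.46 and -1.76 in WT. In intensity units it had 1304, 1341 and 1396 in TKO and 118, 145.1 and 115.4 in WT. The dishes of each group lay within 0.30 of each other and the groups 3.13 apart at the nearest, a difference of 3.36 ± 0.086 (SE; adjusted p = 4.04e-06). Over the alternatives it ran from 2.79 to 3.44, with a call in each. The second probe, assigned to another transcript of the gene, read -3.48, -3.89 and -4.19 in TKO and -6.87, -6.57 and -6.16 in WT. It was well above background on 2 TKO arrays and 0 WT arrays, so it was not tested with the others. The measured TKO mean was 2.376-fold higher than WT, when each WT array is given its lowest signal well above background. That mean includes TKO dish 3, which was not well above background, so the value is not a strict lower bound. The third probe (A_55_P2099670, 102.7 kb upstream of the first) was well above background on 0 arrays.

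DAB2 is the clathrin adaptor that binds the tails of LRP2 and related receptors and carries them into the cell. Its probe (A_55_P1977473, mm9 chr15:6390616-6390675) read -3.77, -3.60 and -3.97 in TKO, against -4.48, -4.53 and -4.63 in WT. All 3 TKO dishes were higher, at 26.3 to 31.5 intensity units against 15.7 to 17.3 in WT, by 0.77 ± 0.103 (SE; adjusted p = 0.00137). The rise passed under every alternative run, at 0.21 with normexp and 0.56 to 0.86 in the others. The second Dab2 probe (A_52_P560077), assigned to another transcript, was well above background on 0 arrays.

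**Figure D3:**
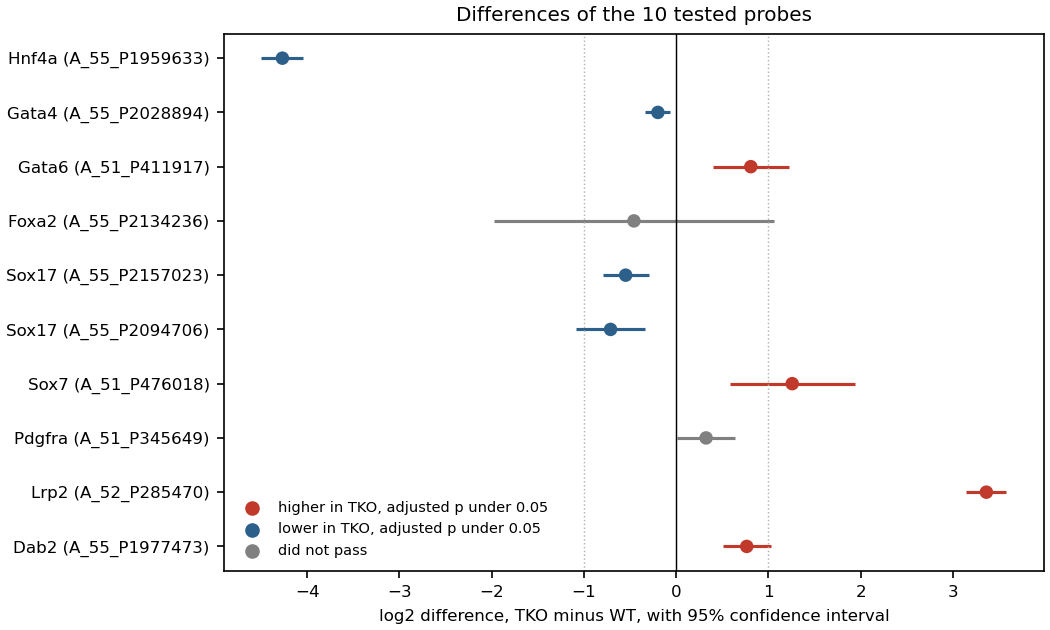
Differences between TKO and WT dishes (log2, TKO minus WT, horizontal axis) for the 10 probes that were tested, with 95% confidence intervals and dotted lines at a 2-fold change; red is higher and blue lower in TKO at an adjusted p under 0.05, grey did not pass. Hnf4a at -4.27 and Lrp2 at 3.36 lie far outside the rest, and the Foxa2 interval, from -1.98 to 1.06 in this fit per probe, covers both sides of 0.

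The genes around the 9 did not share the large differences of Hnf4a and Lrp2. Within 5 Mb on either side, the median difference of the other tested genes was 0.01 around Hnf4a (122 genes), 0.06 around Lrp2 (64 genes), 0.01 around Sox7 (102 genes), 0.06 around Gata6 (67 genes) and Foxa2 (125 genes), 0.02 around Gata4 (103 genes) and 0.09 around Dab2 (51 genes). Around Sox17 it was -0.12 over 15 genes, as over its whole chromosome, and around Pdgfra it was -0.22 over 69 genes.

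Over the 6 dishes, each centred gene was set against 13267 other tested genes with a symbol, by Euclidean distance, for the 3 called genes with at least a 2-fold difference. With 6 arrays in 2 groups this mostly reads the size of the difference between the groups. Nearest to Hnf4a were the citrate transporter gene Slc13a5 (distance 0.11, difference -4.30), Sned1 (0.29, -4.28) and Zfp42 (0.34, -4.07), which encodes the ES cell factor REX1. Nearest to Lrp2 were Slc5a4b of the sodium-glucose transporter family (0.21, difference 3.50), the stress response gene Gadd45g (0.22, 3.46) and the Notch ligand gene Dll1 (0.27, 3.32). Nearest to Sox7 were Siah3 (0.33, difference 1.38), the adhesion molecule gene Alcam (0.37, 1.26) and the bHLH factor gene Tal2 (0.45, 1.38). These are dim genes, with WT means of -4.95, -5.16 and -4.61. Like Sned1 (TKO mean -3.87), they have no value where all 6 arrays must be above background. The call of Alcam was lost in 2 of 16 alternatives.

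The RefSeq promoters of build GRCm38.p6, 250 bases before to 50 after each start, were read for the 5 genes the table holds (Hnf4a, Lrp2, Dab2, Foxa2 and Pdgfra, in 9 windows). The arrays do not tell the starts of a gene apart. Those of the largest fall and the largest rise are shown because they differ in the number of CpG dinucleotides, the sites where TET enzymes act, which are in capitals. They are the windows chr2:163506607-163506906 and chr2:163546905-163547204 (plus strand) of Hnf4a and chr2:69585980-69586279 (minus strand) of Lrp2:
Hnf4a, upstream start: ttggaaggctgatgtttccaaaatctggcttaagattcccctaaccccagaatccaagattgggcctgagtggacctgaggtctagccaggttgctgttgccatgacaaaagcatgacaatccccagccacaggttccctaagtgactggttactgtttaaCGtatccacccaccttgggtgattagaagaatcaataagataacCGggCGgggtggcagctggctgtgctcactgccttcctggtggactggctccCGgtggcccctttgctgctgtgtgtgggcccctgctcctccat
Hnf4a, downstream start: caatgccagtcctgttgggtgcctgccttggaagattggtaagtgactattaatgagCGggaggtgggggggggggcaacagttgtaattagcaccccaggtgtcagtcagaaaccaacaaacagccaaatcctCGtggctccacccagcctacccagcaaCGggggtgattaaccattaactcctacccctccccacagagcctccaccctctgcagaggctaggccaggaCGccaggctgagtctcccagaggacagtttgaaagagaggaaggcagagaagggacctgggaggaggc
Lrp2: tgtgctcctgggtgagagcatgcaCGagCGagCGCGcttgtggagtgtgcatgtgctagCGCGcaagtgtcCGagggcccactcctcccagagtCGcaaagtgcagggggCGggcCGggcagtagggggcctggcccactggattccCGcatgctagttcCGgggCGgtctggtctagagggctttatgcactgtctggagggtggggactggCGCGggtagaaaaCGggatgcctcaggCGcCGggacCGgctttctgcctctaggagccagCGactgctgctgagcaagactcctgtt
Both Hnf4a windows hold 4 CpG, more than 31.4% of the 32851 mouse windows do, whose median is 7. The Lrp2 window holds 20, more than 73.5% of the windows. The other windows hold 19 and 2 (Dab2), 23, 13 and 12 (Foxa2) and 5 (Pdgfra). Motifs were searched on both strands. The GATA factor motif AGATAA stands once in the upstream window of Hnf4a, in 1 window of Foxa2 and in 1 of Dab2. A second form of it, TGATAA, stands once in that same window of Dab2. One form or the other is in 18.6% of all windows. The SOX motifs ACAATG and AACAAT (18.7% of all windows hold one or the other) and the HNF4 motifs CAAAGTCCA and CAAAGTTCA (0.861%) are in none of the 9. These are matches of letters and not evidence of binding. DNA methylation was not measured on these arrays, and a link between CpG number and the RNA differences was not tested.

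The wider lineage was read through lists of markers. Of 27 visceral endoderm genes, 19 were tested: 7 were higher in TKO, 6 lower and 6 did not pass, with a median difference of 0.07. Of the tested genes of the list 68.4% were called, beside 59.7% of all tested genes. The genes that rose most were Apoc2, a lipoprotein component (2.75 ± 0.139), Amot, an angiomotin (1.52 ± 0.069), Cited1, a transcriptional coregulator (1.23 ± 0.067), and Cubn (0.93 ± 0.058; SE). Those that fell most were Rbp4, the retinol carrier (-1.38 ± 0.038), Apom (-1.13 ± 0.047), Foxa1 (-0.70 ± 0.117) and the transferrin gene Trf (-0.45 ± 0.045). The secreted products of the list were divided: Apoc2, Apom, Rbp4, Trf and Fgg were well above background on all 6 arrays, and Afp, Ttr, Apoa1, Apoa4, Apob and Fgb on 0, as was Cer1.

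Of the 19 genes of parietal endoderm and basement membrane, all tested, 8 were higher in TKO, 7 lower and 4 did not pass (median 0.07; 78.95% called, beside 59.7% of all tested genes). Those that rose most were the laminin gene Lamb1 (1.44 ± 0.039), the keratin gene Krt18 (1.35 ± 0.036), Pth1r (1.34 ± 0.103), the receptor through which PTHrP acts on parietal endoderm, and Thbd, thrombomodulin (1.1 ± 0.207). Those that fell most were the laminin gene Lama1 (-1.76 ± 0.057), the collagen lysyl hydroxylase gene Plod2 (-1.69 ± 0.117), Nid1 (-1.25 ± 0.096) and the collagen gene Col4a1 (-0.92 ± 0.043). The laminin genes Lamb1 and Lama1 thus differed in opposite directions.

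Of 11 tested genes of the early steps, 4 were higher in TKO, 6 lower and 1 did not pass (median -0.21; 90.9% called, beside 59.7%). Fgfr2, a receptor for the FGF signal, rose by 0.67 ± 0.134, with a call in all 17 alternatives and values from 0.33 (normexp) to 1.80 (mean of its kept probes). Rspo3, a Wnt amplifier, differed by 0.64 ± 0.193 (adjusted p = 0.0322), a call lost in 6 of 17 alternatives, among them median centring, quantile normalization and no filter. Bmp4 fell by 3.64 ± 0.055, and Spry4, a feedback inhibitor of FGF signalling, fell by 2.85 ± 0.185, with 2 of 3 TKO arrays well above background. Pdgfa, the ligand of PDGFRA, fell by 0.72 ± 0.061 and Sall1 fell by 0.65 ± 0.040.

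Of 13 tested partners and ligands of the receptors, 5 were higher, 5 lower and 3 did not pass (median -0.06; 76.9% called, beside 59.7%). LRP2 works with cubilin (Cubn), which needs amnionless (Amn) to reach the surface, and is folded with the help of RAP, encoded by Lrpap1. Cubn read -3.36, -3.44 and -3.36 in TKO and -4.42, -4.24 and -4.29 in WT, and Lrpap1 rose by 1.3 ± 0.050 (adjusted p = 1.28e-05). Amn differed by 0.08 ± 0.063 and did not pass. Of the endocytic adaptors, Numb rose by 0.42 ± 0.093 (0.22 and not past with median centring, adjusted p = 0.0502 with the replicate block) and Gipc1 fell by 0.24 ± 0.038. Among the PDGF ligands, Pdgfc rose by 0.40 ± 0.049 (0.20 and not past with median centring) and Pdgfb fell by 1.61 ± 0.087.

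Related genes of each family also differed. Of 14 tested paralogs, 3 were higher in TKO, 9 lower and 2 did not pass (median -0.39; 85.7% called, beside 59.7%). Gata3, a GATA factor of the trophoblast, rose by 2.98 ± 0.098, reading -0.88, -0.96 and -0.81 in TKO and -3.75, -4.06 and -3.78 in WT. Gata1 rose by 0.35 ± 0.085, Gata2 fell by 1.06 ± 0.086, and Gata5 differed by -0.11 ± 0.055 without passing. The SOXF member Sox18 differed by -0.13 ± 0.203 and did not pass, while the forkhead gene Foxa3 fell by 0.52 ± 0.066. Pdgfrb, the other PDGF receptor, fell by 2.26 ± 0.151, and the related receptor gene Kit differed by -0.19 ± 0.063 (adjusted p = 0.0462), a call lost in 9 of 17 alternatives (-0.06 with the first slide row alone). Among the relatives of Lrp2, Lrp1 fell by 0.84 ± 0.088, Vldlr fell by 0.27 ± 0.054, and Lrp8 differed by -0.51 ± 0.169 (adjusted p = 0.0435), a call lost in 7 of 17 alternatives. Gata1 lost its call with median centring and with slide row as a block (adjusted p = 0.111), and Vldlr with the first slide row alone or as a block. The neuronal adaptor gene Dab1 fell by 0.73 ± 0.039.

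**Figure D4:**
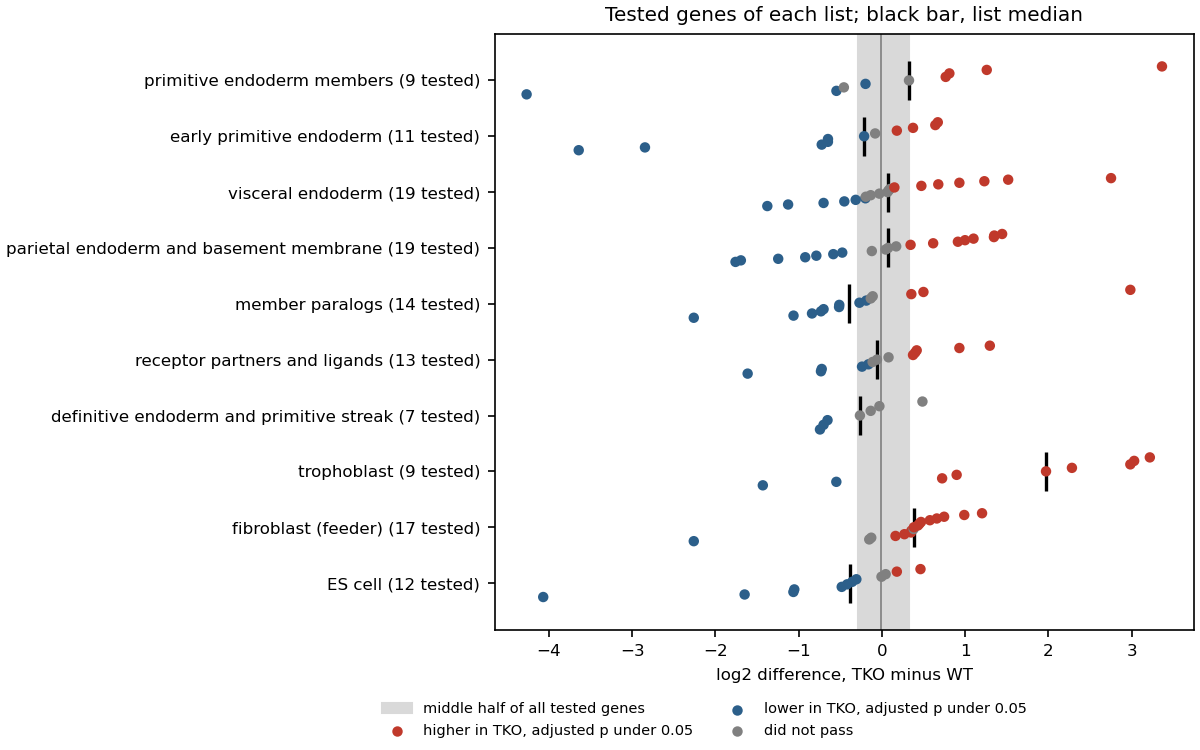
Differences between TKO and WT (log2, TKO minus WT, horizontal axis) of the tested genes of 10 marker lists, red where higher and blue where lower in TKO at an adjusted p under 0.05, grey where not past; black bars are list medians and the grey band holds the middle part of all tested genes, from the lower to the upper quartile. The primitive endoderm members and the visceral and parietal lists spread to both sides, and the fibroblast list lies mostly to the right (median 0.38). Drawn at their measured values are 3 trophoblast genes not well above background in WT, which also enter the median bar of that list.

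Markers of other cell types differed too. Of 7 tested genes of definitive endoderm and primitive streak, 0 rose, and 3, among them Eomes (-0.74 ± 0.043) and Gsc (-0.65 ± 0.146), fell. That is 42.86% called, beside 59.7% of all tested genes. The streak gene T was well above background on 2 TKO arrays and 0 WT arrays, so it was not tested. It read -3.53, -3.66 and -4.05 in TKO and -6.91, -7.21 and -5.81 in WT. Of the 9 tested trophoblast genes 7 were higher and 2 lower (100% called, beside 59.7% of all tested genes). Of those 7, Cdx2, Hand1 and Plac1 were well above background on 3 TKO arrays and 0 WT arrays and so passed the filter only through the TKO dishes; no list median is given. The fibroblast markers include the defining collagens Col1a1 (0.58 ± 0.046), Col1a2 (0.38 ± 0.077) and Col3a1 (0.66 ± 0.220) and Thy1 (0.27 ± 0.043), all higher in TKO, and Pdgfrb, which fell. The call of Col3a1 was lost in 11 of 17 alternatives, among them quantile normalization, the deposited value table, slide row as a block and all but one of the single dishes left out, and those of Col1a2 and Thy1 with median centring. Lum was well above background on 0 arrays. The part of fibroblast RNA in the differences above was not tested. Of the 12 ES cell genes 2 were higher and 8 lower (median -0.39, with 83.33% called, beside 59.7% of all tested genes). Pou5f1 differed by -0.42 ± 0.103, Nanog by -0.31 ± 0.049 and Sox2 by -0.36 ± 0.040. Other falls were larger, and 4 of the 8 were at least 2-fold, with Zfp42 at -4.07 ± 0.049.

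With each array centred on its median, the median gene differed by -0.21, and list counts moved with it. Of all 21562 tested genes, 3827 were higher in TKO and 9488 lower under this scaling. There 6 visceral genes were higher and 6 lower (median -0.13), 7 and 8 parietal genes (median -0.13), 1 and 7 early genes, 2 and 7 partners, 2 and 10 paralogs, and 5 and 2 fibroblast markers. The medians of the visceral and parietal lists thus changed sign with the scaling. Among the 9 genes, 4 rose and 3 fell under this scaling too.

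**Figure D5:**
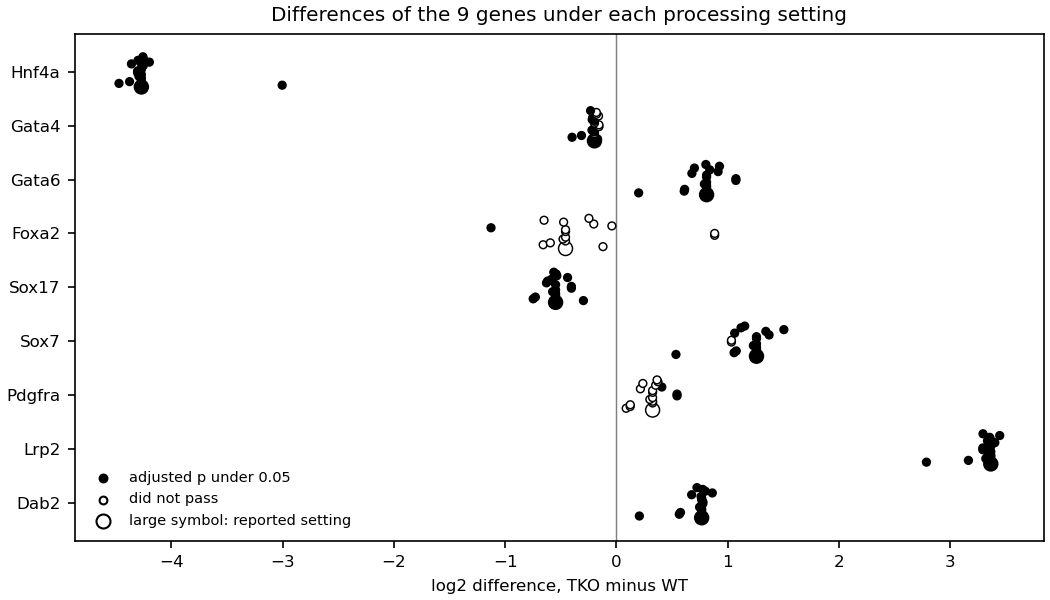
Difference of each of the 9 genes (log2, TKO minus WT, horizontal axis) under the reported setting (large symbol) and each alternative (small symbols); filled symbols passed at an adjusted p under 0.05 and open ones did not. Foxa2 lies on both sides of 0, from -1.13 to 0.88, Gata4, Sox7 and Pdgfra mix filled and open symbols, and the other 5 genes passed throughout.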

How the data were processed

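RNA of 3 TKO and 3 WT dishes was labelled with Cy3 and read on 6 Agilent arrays of 62976 spots, 59305 of them not controls. The submitters' processing notes name Agilent Feature Extraction (11.5.1.1) as the scanner software. The processed signal is an intensity, linear and with background subtracted per the file headers, as are the mean signal and local background. The deposited flags are 0 or 1 (other). The authors' deposited value table matched the log2 processed signal of each array up to a constant (r = 1), with column medians of -3.9, -3.74 and -3.82 (TKO) and -3.97, -3.97 and -4.03 (WT) and its 75th percentile at 0. Its centring is not stated in the sources used here. A fold is 2 to the power of the size of a log2 difference computed here from the deposited signals.

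Control and outlier spots were left out and spots of a probe averaged. A probe was kept if well above background (on an array, at least 0.5 of its spots) on at least 3 of 6 arrays, whichever group they were in, so a probe high in 1 group could pass through that group. This left 30734 probes, and the brightest kept probe stood for each of 21562 genes. All 9 genes and 10 of their 14 probes were kept. Groups were compared with limma 3.58.1 (lmFit, eBayes) in R 4.3.3, two-sided, on the log2 scale, as tested on simulated data. The small number of arrays limits precision. The genes and lists were chosen with earlier results of these data known. Beyond the 9 genes, the 4 most raised and 4 most lowered called genes of a list were named at most, with the tested paralogs (some named genes are not reported here), the defining fibroblast markers and the 3 nearest patterns. Gene names and positions (mm9) are those of the array files. Protein comparisons were not made here.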

Additional observations from a re-analysis of the deposited data

How the results depend on the processing

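Alternatives were normexp background correction, median centring, quantile normalization, 2 other filters on dim probes, the deposited value table, a replicate block, the first slide row alone, a variance trend, the mean of a gene's probes and leaving out each dish; slide row as a block and list counts by scaling were added after seeing the data. Median centring moved the number of genes higher in TKO to 3827, from 6464 as reported, and the lower ones to 9488, from 6398. Called genes numbered 11538 to 12465, and called genes of the 9 from 6 to 8, when 1 dish was left out. Of the 9 genes, Hnf4a, Lrp2, Gata6, Sox17 and Dab2 kept direction and call in all 17 alternatives; the fit per probe with slide row as a block lost the brighter Sox17 probe (-0.40, adjusted p = 0.0551). Reversals were Foxa2 (0.8821 with the first row alone and with row as a block) and, among 60 other named genes, Sox18 (0.007873 with normexp, 0.03387 without TKO dish 1, 0.0004766 without WT dish 2; -0.2834 to 0.03387 over the dishes left out); the cause was not tested. Of 1014 values for these 60 genes, 964 kept direction and side of the threshold, 45 no longer passed and 2 newly passed. Same-numbered dishes did not deviate together (r from -0.07 to 0.01, beside -0.04 to 0.06 in the other pairs). With 3 dishes in each group this cannot exclude a pairing by number. The replicate block gave 11619 called genes and changed no call among the 9. The first row alone and row as a block both rest on TKO dish 1 (in the first, assumed to vary like the WT dishes), and Foxa2 has no value where all 6 arrays must be above background. The levels of Gata6, Sox7, Sox17, Pdgfra, Foxa2 and Dab2, and that of Hnf4a in TKO, lie near the lowest measurable signal, which limits them.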
